A study of Mus musculus with 54 samples.

Results

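Insulin-like growth factor (IGF) signalling was followed through 9 genes: the ligand Igf2, the receptors Igf1r and Igf2r, the non-coding RNA Airn that overlaps Igf2r, and the binding proteins Igfbp2, Igfbp3, Igfbp4, Igfbp5 and Igfbp6. The genes were chosen by name, with earlier results of these data known. Each matched 1 entry of 38363 in the table of retinoic acid (RA) differentiation and 1 of 39067 in the table of LIF withdrawal and sorted lineages. All values are FPKM (fragments per kilobase of transcript, scaled to the mapped fragments of the library), a level corrected for gene length and depth. The RA set holds 46C mouse embryonic stem (ES) cells of strain 129/Ola, whose Sox1 locus carries a GFP reporter, either wild type (WT) or with 58 kb of the locus of the long non-coding RNA Haunt deleted (58 kb KO). Both genotypes were exposed to 2 µM RA in N2B27 medium without LIF or inhibitors. RNA was taken at days 2 and 4. Each genotype has 2 libraries at each day, named WT-1 and WT-2 or KO-i and KO-j. The labels do not say whether KO-i and KO-j are separate clones, or that libraries sharing a group grew in separate dishes, so p-values measure the spread between these libraries only, which may be technical.

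The other table holds WT cells in 7 columns without replicates. Day 0 was taken as the authors' mean over 3 libraries of the lines CJ7 and JF4 (129S1/SVImJ). Day 2 after LIF withdrawal was taken as the mean over 2 libraries of J1 (129S4/SvJae) and CJ7, and day 6 over 3 libraries of JF4, J1 and CJ7. The names of these columns give only wild type and day, so that they are means was inferred. Day 4 is a single library of CJ7, so time and line cannot be told apart along this series. The mesendoderm column (ME) is a single library of cells with a GFP reporter in T that were sorted for GFP after LIF withdrawal. The neural precursor column (NPC) is a single library of 46C cells sorted for Sox1-GFP, and the neural stem column (NSC) a single library of such cells after expansion with EGF and FGF-2. Defining markers were present under their labels: Pou5f1 stood at 997 FPKM at day 0, T at 192 in ME, Sox1 at 21.8 in NPC and Fabp7 at 1227 in NSC. Not all were particular to 1 column, with T at 204 FPKM at day 4 and Pou5f1 at 885 at day 2. In NSC Sox1 was at 0.910 FPKM, and Hes5 at 0.422 against 7.33 in NPC.

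IGF2 is a fetal growth factor that signals through IGF1R, a receptor tyrosine kinase that feeds the PI3K-AKT and MAPK pathways. IGF2R, also the cation-independent mannose-6-phosphate receptor, takes IGF2 to the lysosome, and the IGFBPs bind IGFs outside the cell and set how much ligand reaches the receptor. Igf2 and Igf2r are imprinted in the mouse, expressed mainly from the paternal and the maternal allele, and the paternally expressed Airn silences the paternal Igf2r in cis. The values here do not separate alleles.

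From day 2 to day 4 of RA the mRNA for the binding proteins passed from mostly Igfbp2 to mostly Igfbp5. These genes lie next to each other on chromosome 1 in opposite orientation. Airn rose 8.03-fold in mean FPKM in WT. Igf2r, the gene it overlaps, stood 1.44-fold higher, close to the 1.52-fold of Igf1r. The Igf2r difference narrowly missed the threshold (limma adjusted p = 0.0619), a call that depended on the libraries used. In the tables' mm9 coordinates Igfbp2 lies on the plus strand at chr1:72871054-72899045 and Igfbp5 on the minus strand at chr1:72904639-72921439. Igf2r lies on the minus strand at chr17:12875272-12962572, and Airn starts inside it on the plus strand at chr17:12934177-13008423 (to 13052750 in the LIF table). For these 2 pairs of neighbours, the 250 bases before each start are shown from RefSeq (GRCm38.p6), 5′ to 3′ on the gene's strand. Capitals mark matches to any of 3 short motifs on either strand. The GC box was searched as GGGCGG. The core promoter element known as the TATA box was searched as TATAAA. The half-site recognised by retinoid receptors was searched as AGGTCA.
Igfbp2 (chr1:72824230-72824479, plus strand): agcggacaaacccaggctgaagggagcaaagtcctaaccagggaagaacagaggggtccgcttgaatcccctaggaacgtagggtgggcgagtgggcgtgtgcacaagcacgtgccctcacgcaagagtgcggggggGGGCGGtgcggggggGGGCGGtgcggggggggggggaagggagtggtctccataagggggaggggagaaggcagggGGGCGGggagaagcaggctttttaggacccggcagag
Igfbp5 (chr1:72874866-72875115, minus strand): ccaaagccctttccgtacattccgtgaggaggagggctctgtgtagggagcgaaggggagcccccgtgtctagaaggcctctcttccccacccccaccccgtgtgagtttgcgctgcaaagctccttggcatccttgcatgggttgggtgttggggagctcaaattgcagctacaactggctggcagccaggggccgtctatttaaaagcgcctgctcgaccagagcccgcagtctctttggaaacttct
Igf2r (chr17:12769707-12769956, minus strand): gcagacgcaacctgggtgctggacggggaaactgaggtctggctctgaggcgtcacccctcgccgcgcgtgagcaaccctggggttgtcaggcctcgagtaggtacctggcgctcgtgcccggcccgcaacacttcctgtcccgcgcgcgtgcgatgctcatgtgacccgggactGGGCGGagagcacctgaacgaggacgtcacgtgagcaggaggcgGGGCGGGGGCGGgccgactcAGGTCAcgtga
Airn (chr17:12741061-12741310, plus strand): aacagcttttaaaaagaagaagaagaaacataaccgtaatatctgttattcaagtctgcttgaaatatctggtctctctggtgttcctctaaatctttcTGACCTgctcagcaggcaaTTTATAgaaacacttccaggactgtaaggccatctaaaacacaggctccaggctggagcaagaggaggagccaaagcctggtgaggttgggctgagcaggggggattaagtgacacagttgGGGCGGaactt
For Igfbp2, which has 2 starts in RefSeq, the first is shown.

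The Igfbp2 window shown held 3 GC boxes, and the window of its other start, not shown, held none of the motifs. The Igfbp5 window held no exact match to the motifs, and near matches were not searched. The Igf2r window held 3 GC boxes, 2 of them adjoining, and 1 half-site, in 69.2% G and C with 27 CpG dinucleotides. The Airn window had 45.6% G and C with 2 CpG and held 1 match of each motif. Over all 32851 windows of the same length the median was 52.4% G and C with 6 CpG, and 32.7% of windows held a GC box, 12.4% a TATA box and 14% a half-site. A match describes letters only.

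Whole-set values bear on these genes as follows. Depth, estimated from the steps between low values, was about 9 to 16.4 M reads per RA library. The deleted gene Haunt (listed as Gm15055) stood at 128 and 142 FPKM in the WT libraries of day 2 against 1.13 in KO-i, and was listed at 0 in KO-j. On day 4 its WT libraries read 31.8 and 40.6 FPKM and the KO libraries 3.08 and 0.447. Genes of chromosome 1, which holds Igfbp2 and Igfbp5, stood higher in KO-i than the WT mean, by a median of 0.31 log2 units at day 2 and 0.29 at day 4 over 507 genes, against 0.01 and -0.02 in KO-j. The other chromosomes with IGF genes had medians within 0.05 of 0 in all 4 KO libraries.

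Igf2 rose between days 2 and 4 in both genotypes. WT-1 and WT-2 held 113 and 71.6 FPKM on day 2, then 280 and 362 on day 4. KO-i and KO-j held 88.1 and 91.6 FPKM on day 2, then 176 and 200 on day 4. Every day 4 library lay above every day 2 library, and at day 4 both KO libraries lay below both WT libraries. The rise was 3.47-fold in mean FPKM in WT and 2.09-fold in KO, or 1.81 ± 0.21 and 1.05 ± 0.21 on the log2(FPKM + 1) scale (SE, n = 2 and 2; limma adjusted p = 0.00172 and 0.0185). The KO call was lost without any 1 of the 4 KO libraries (adjusted p = 0.0563 to 0.0696) and without the filter on low values (0.0566). Igf2 overlaps the antisense gene Igf2as and 2 unnamed assembled loci, and as the RA libraries were not strand-marked, their reads cannot be separated. One such locus, within the last part of Igf2, was listed at 4.94 and 8.05 FPKM in WT-1 and KO-i at day 2 and at 0.000652 and 0.646 in WT-2 and KO-j.

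Igf1r rose by a small step in both genotypes. It stood at 8.75 and 8.99 FPKM in WT and 10.1 and 8.64 in KO at day 2, and at 13.2 and 13.9 in WT and 14.8 and 14.3 in KO at day 4. All 4 libraries of day 4 lay above the 4 of day 2, while the genotypes lay close together at each day. An unnamed assembled locus inside Igf1r stood at 16.3 and 11.2 FPKM in WT and 18.7 and 16.4 in KO at day 2. At day 4 this locus stood at 18.3 and 23.5 FPKM in WT and 23.2 and 22.0 in KO. As the RA libraries were not strand-marked, reads from the shared stretch cannot be assigned. The log2 difference of Igf1r was 0.56 ± 0.12 in WT and 0.59 ± 0.12 in KO (SE, limma adjusted p = 0.0143 and 0.0179). The WT call was lost without any 1 of the 4 WT libraries (adjusted p = 0.0622 to 0.0895) and the KO call without KO-j of day 2 (0.0901) or KO-i of day 4 (0.0695).

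Igf2r, the clearance receptor, was more abundant than Igf1r in every library. It stood at 29.7 and 26.7 FPKM in WT and 36.5 and 27.9 in KO at day 2, and at 41.1 and 40.3 in WT and 52.3 and 39.6 in KO at day 4. Day 4 libraries lay above those of day 2, with KO-i the highest at each day. The difference of 0.51 ± 0.17 log2 units in WT and 0.50 ± 0.17 in KO did not pass (SE, limma adjusted p = 0.0619 and 0.081). These values are close to those of Igf1r, and the call depends on the libraries used: the WT difference passed without any 1 of the 4 KO libraries (adjusted p = 0.0393 to 0.046) and without both KO-i libraries (0.0161), and the KO difference passed without KO-j of day 4 (0.0464). Over all alternatives run the adjusted p lay between 0.0101 and 0.24 in WT and between 0.0155 and 0.335 in KO.

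Airn started at 1.28 and 0.858 FPKM in WT and 0.803 and 0.690 in KO at day 2. At day 4 it stood at 8.96 and 8.20 FPKM in WT and at 4.01 and 4.57 in KO. It rose 8.03-fold in mean FPKM in WT and 5.74-fold in KO, or by 2.22 ± 0.17 and 1.60 ± 0.17 log2 units (SE, limma adjusted p = 0.000472 and 0.00303). WT-1 was the only day 2 library at 1 FPKM or more, so Airn met the filter on low values only through day 4. Its calls between days are therefore no independent sign of a rise. The levels of the 2 genotypes did not overlap at either day, KO being lower. Airn lies in part inside Igf2r, and without strand marks a read from the shared stretch cannot be assigned. Read against Igf2r, the group mean of Airn was 8.58 FPKM beside 40.7 for Igf2r in WT at day 4, and 1.07 beside 28.2 at day 2.

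**Figure D1:**
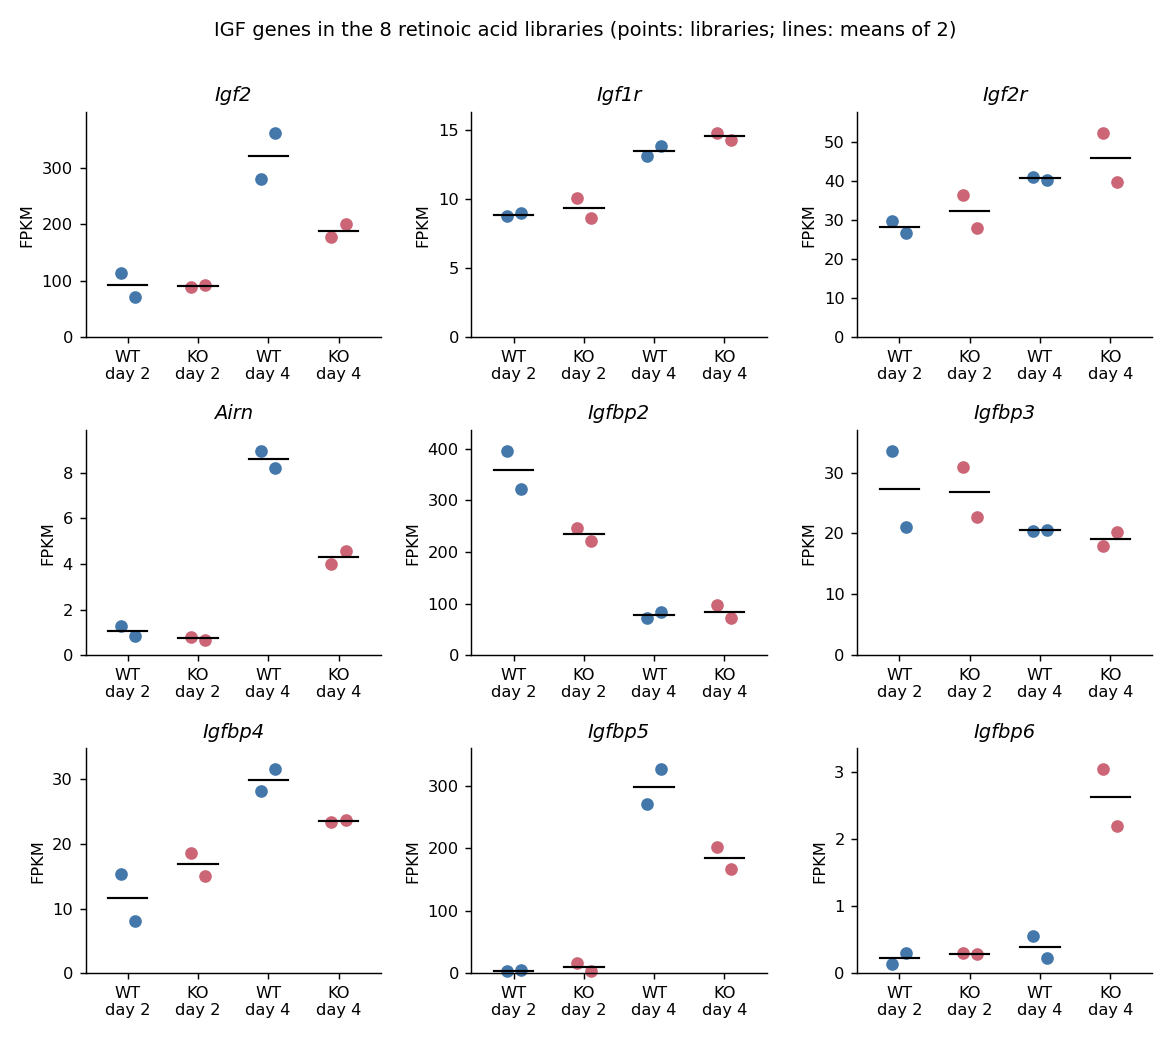
FPKM of the 9 IGF genes (vertical axes, linear from 0) in each RA library, grouped by genotype and day; points are libraries and black lines the means of 2. Igfbp5 climbs from 4.22 to 298 FPKM in WT while Igfbp2 falls from 359 to 78.9, and Igf2, Airn and Igfbp5 of KO lie below WT at day 4.

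Igfbp2, the binding protein with the highest level at day 2, fell in both genotypes. It stood at 396 and 322 FPKM in WT and 247 and 222 in KO at day 2, and at 72.9 and 84.8 in WT and 96.7 and 72.4 in KO at day 4. The WT libraries of day 2 were the highest, those of KO lay below them, and at day 4 the genotypes overlapped. The change was -2.17 ± 0.17 log2 units in WT and -1.47 ± 0.17 in KO (SE, limma adjusted p = 0.000472 and 0.00339), a 4.55-fold and 2.77-fold lower mean FPKM.

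Igfbp5, whose protein also binds extracellular matrix, made the largest change of the 9. It stood at 3.66 and 4.77 FPKM in WT at day 2 and at 270 and 327 at day 4. The KO libraries held 16.7 FPKM (KO-i) and 3.87 FPKM (KO-j) on day 2, then 202 and 166. KO-i of day 2 stood apart from the 3 other libraries of that day, and at day 4 both KO libraries lay below both WT libraries. The rise was 70.8-fold in mean FPKM in WT and 18.0-fold in KO, or 5.84 ± 0.50 and 4.31 ± 0.50 log2 units (SE, limma adjusted p = 0.000634 and 0.00372). KO-i sets the KO fold: KO-j alone rose 43.0-fold, KO-i alone 12.1-fold, and without both KO-i libraries the fitted rise was 5.10 log2 units (adjusted p = 0.00377). The 4 smooth muscle markers Acta2, Tagln, Cnn1 and Myl9 moved with Igfbp5 between days: their summed FPKM on day 2 was 6.39 to 7.06 in WT, 7.09 in KO-j and 23.0 in KO-i. On day 4 the sum was 252 to 308 in WT and 338 to 342 in KO, where Igfbp5 was lower. All 4 passed the test of day 4 against day 2 in both genotypes (all genes: 25.3% in WT, 17.8% in KO). Cnn1 met the filter on low values only through day 4. Other sums rose between days too. In WT extraembryonic endoderm markers stood at 390 to 444, then 1698 to 1804 FPKM, and trophoblast markers at 27.2 to 27.8, then 201 to 320. At day 4 both were lower in KO (994 to 1010 and 77.7 to 121). Sums of undifferentiated ES, primed epiblast and neural stem markers fell. The part of all these markers in the Igfbp5 values was not tested. In bulk RNA, fewer cells of a type and less RNA per cell cannot be told apart.

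Igfbp4, a binding protein cleaved by the protease PAPP-A, rose in WT from 15.3 and 8.10 FPKM at day 2 to 28.1 and 31.6 at day 4. In KO it went from 18.6 and 15.1 FPKM to 23.4 and 23.7. The WT change was 1.34 ± 0.25 log2 units and the KO change 0.47 ± 0.25 (SE, limma adjusted p = 0.00907 and 0.235), and the WT call was lost without WT-2 of day 4 (0.0605). The difference between these changes did not pass either (-0.87 ± 0.36, SE, limma adjusted p = 0.884), and it was -0.45 without WT-2 of day 2 and -1.29 without WT-1 of day 2.

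Igfbp3, the main carrier of IGFs in serum, did not pass in either genotype. It stood at 33.6 and 21.0 FPKM in WT and 30.9 and 22.7 in KO at day 2, and within 18.0 to 20.6 in all 4 libraries of day 4, with a log2 difference of -0.36 ± 0.22 in WT and -0.46 ± 0.22 in KO (SE, limma adjusted p = 0.282 and 0.197). The day 2 libraries set these sizes: leaving out WT-1 of day 2 took the WT value to -0.033, and leaving out WT-2 to -0.69, and the KO value was -0.24 without KO-i and -0.67 without KO-j of day 2. Igfbp6, which prefers IGF2 over IGF1, was the lowest of the binding proteins. It stood at 0.143 and 0.310 FPKM in WT and 0.308 and 0.283 in KO at day 2, at 0.550 and 0.232 in WT at day 4, and at 3.05 and 2.20 in KO at day 4. Only the 2 KO libraries of day 4 lay above 1 FPKM. Igfbp6 thus entered the test through that group alone, and its KO change of 1.47 ± 0.23 log2 units (SE, limma adjusted p = 0.00832) is no independent sign of a difference.

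Over the 9 genes, 5 rose and 1 fell in WT (Igf2, Igf1r, Airn, Igfbp4 and Igfbp5 against Igfbp2), and 5 rose and 1 fell in KO (Igf2, Igf1r, Airn, Igfbp5 and Igfbp6 against Igfbp2). Of all 15705 genes tested, 25.3% were called in WT (14.4% higher, 10.9% lower) and 17.8% in KO (10% higher, 7.81% lower). The 9 were chosen with earlier results of these data known. The shares and medians of all genes are therefore background only, and no excess over them is claimed. The days did not overlap for 8 genes in WT, 6 higher and 2 lower at day 4, where 68.8% of all genes did not (37.6% higher, 31.2% lower). In KO they did not overlap for all 9, 7 higher and 2 lower, against 59.8% of all genes (32.8% higher, 27% lower). Without Igfbp6 the KO count was 4 rising and 1 falling of 8 genes. Airn, among the rising genes of both genotypes, met the filter on low values only through its day 4 libraries. Its place in these counts is no independent sign of a rise. The median difference of the 9 was 0.56 in WT and 0.59 in KO, against 0.04 and 0.04 over all genes tested. Centring each library on its median moved the all-gene median in WT from 0.04 to -0.06 and the split of calls from 2260 higher and 1713 lower to 1766 and 2334. In KO the split went from 1576 and 1226 to 1189 and 1571. The same number of IGF genes, 6 in each genotype, was called after centring, and no IGF gene changed direction. Without both KO-i libraries, an alternative chosen after seeing the data, 7 of 8 genes were called in WT and 3 of 8 in KO (Airn, Igfbp2 and Igfbp5).

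**Figure D2:**
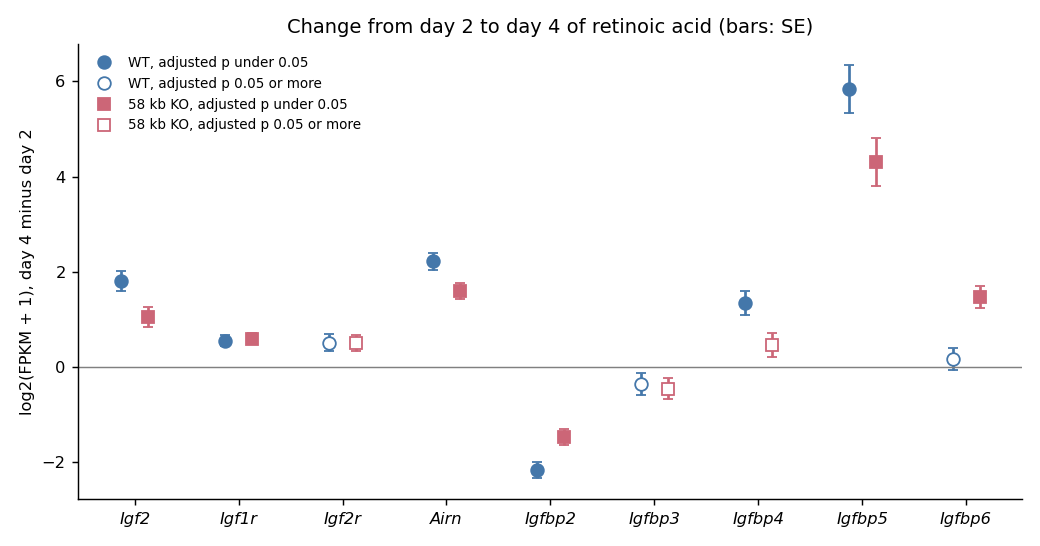
Difference between days 4 and 2 on the log2(FPKM + 1) scale (vertical axis) for each IGF gene in WT (circles) and 58 kb KO (squares); bars are limma's SE and filled symbols have an adjusted p under 0.05. Igfbp5 (5.84 and 4.31) and Airn (2.22 and 1.60) are the highest in WT and Igfbp2 (-2.17 and -1.47) the lowest in both.

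As shares of the summed FPKM of the 5 binding protein genes, Igfbp2 held 78.8% to 90.4% in the 4 libraries of day 2 and 18.3% to 28.2% in those of day 4. Igfbp5 went from 0.816% to 5.31% at day 2 to 58.4% to 70.4% at day 4. Igfbp2 held the largest share in every library of day 2 and Igfbp5 in every library of day 4. The sum itself stayed within 264 to 464 FPKM over the 8 libraries, with the KO libraries of each day below the WT libraries. At day 4 Igfbp2 held 28.2% and 25.4% in KO against 18.6% and 18.3% in WT.

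No IGF gene passed the test of KO against WT. At day 4, where no gene of 15705 was called (limma; 0%), 3 IGF genes had an unadjusted p under 0.05, as did 14.4% of all genes. Without Igfbp6, which entered the test through the KO libraries of day 4 alone, these were 2 of 8. Airn differed by -0.86 ± 0.17 log2 units (SE, limma adjusted p = 0.165) and had a ratio of mean FPKM of 0.500, and Igf2 by -0.76 ± 0.21 (0.215; FPKM ratio 0.586). Igfbp6 differed by 1.38 ± 0.23 (0.134), Igfbp5 by -0.69 ± 0.50 (0.55) and Igfbp4 by -0.33 ± 0.25 (0.569). Igf1r, Igf2r, Igfbp2 and Igfbp3 lay within 0.16 log2 units of WT. The libraries of the genotypes did not overlap for 7 genes, 2 higher (Igf1r, Igfbp6) and 5 lower (Igf2, Airn, Igfbp3, Igfbp4, Igfbp5) in KO, where 46.6% of all genes did not overlap (24.9% higher, 21.7% lower). Without Igfbp6 the count was 1 higher and 5 lower of 8.

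At day 2, 0 of 9 were called (0.0255% of all genes) and 1 had an unadjusted p under 0.05, against 5.11% of all genes. This was Igfbp2, lower in both KO libraries with a ratio of mean FPKM of 0.653 (log2 difference -0.61 ± 0.17, SE, limma adjusted p = 0.877). Igfbp5 differed by 0.84 ± 0.50, which became -0.09 without KO-i, and Igfbp4 by 0.55 ± 0.25, which became 0.12 without WT-2 and 0.97 without WT-1 of that day. The genotypes did not overlap for 2 of 9, Igfbp2 and Airn, both lower in KO, where 37% of all genes did not overlap and 13.9% were lower. Markers of undifferentiated ES cells were also lower in part: the sum of 6 was 363 to 490 FPKM in WT, against 177 (KO-i) and 394 (KO-j), with 2 of 5 tested lower without overlap. Of 4 markers of primed epiblast, the 3 tested were lower in KO without overlap, and the sum of the 4 was 34.1 to 37.3 FPKM in WT and 20.4 to 30.3 in KO. None of these markers passed (limma), and their part in the Igfbp2 difference was not tested. For the difference of the KO effect between days, 0 of 9 passed (0% of all genes), with 5 at an unadjusted p under 0.05, or 4 of 8 without Igfbp6 (5.56% of all genes).

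**Figure D3:**
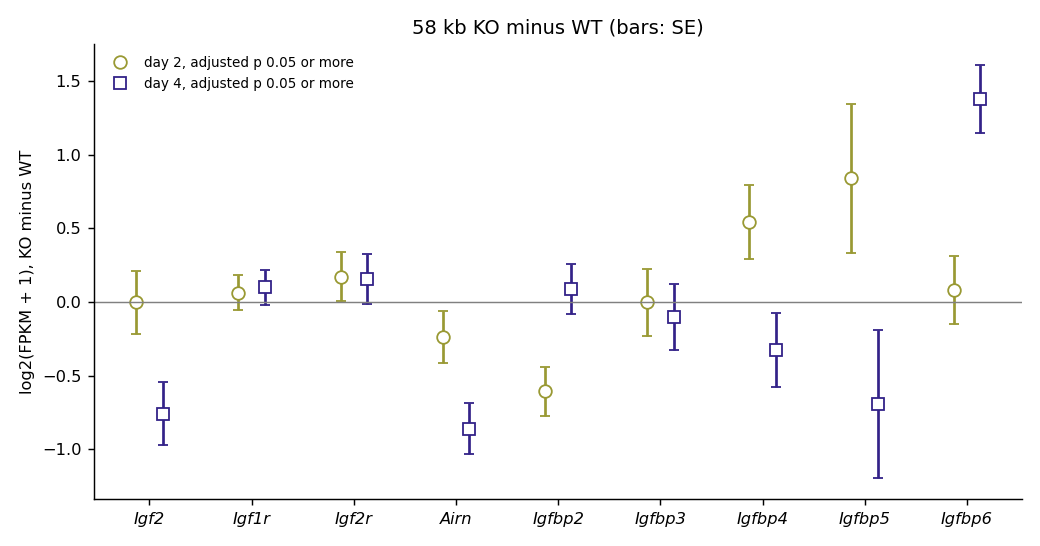
Difference between 58 kb KO and WT on the log2(FPKM + 1) scale (vertical axis) at RA day 2 (circles) and day 4 (squares) for each IGF gene; bars are limma's SE and open symbols mark an adjusted p of 0.05 or more, which holds for all 18 points. Igf2 and Airn at day 4 lie at -0.76 and -0.86, and Igfbp6 at 1.38.

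Markers of other cell types moved beside the lower Igf2, Airn and Igfbp5 of KO at day 4. The summed FPKM of 15 markers of extraembryonic endoderm was 1698 to 1804 in WT and 994 to 1010 in KO. Of the 15, 11 were lower and 1 higher without overlap, where 21.7% of all genes were lower and 24.9% higher. Their median was -0.86 log2 units, and none of the 15 passed the test (limma, all-gene background 0%). At day 2 the same sum was 390 to 444 FPKM in WT and 414 to 422 in KO. The sums of day 4 are mostly Col4a1, Sparc and Lamb1. On that day Col4a1 stood at 563 and 589 FPKM in WT against 273 and 328 in KO, and Sparc at 714 and 614 against 395 and 337. Lamb1 stood at 236 and 192 against 165 and 131. Apoe, the largest of the 15 at day 2, stood at 70.1 and 45.9 FPKM in WT and 47.2 and 87.7 in KO at day 4. The 7 markers of trophoblast summed to 201 to 320 FPKM in WT and 77.7 to 121 in KO at day 4, but these sums are mostly the keratins Krt8 and Krt18, which simple epithelia share. Krt8 stood at 96.6 and 154 FPKM in WT and 28.5 and 55.8 in KO, and Krt18 at 94.0 and 155 against 45.3 and 59.6. Elf5 and Hand1 were under 0.2 FPKM in every library of day 4, and Cdx2 and Eomes under 3 FPKM. The part of these markers in the IGF values was not tested.

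Genes whose profile over the 8 RA libraries was closest to an IGF gene were ranked by the root mean square difference of centred log2(FPKM + 1) among 11681 named genes. Cldn6, a tight junction claudin, was closest to Igf2 (0.14), followed by Meis3 (0.17) and Serpinh1 (0.17). Habp2 was closest to Airn (0.11), Eps8l2 to Igfbp4 (0.13) and Spz1 to Igfbp2 (0.19). For Igfbp5 no gene came within 0.40: Acta2 (0.41), the smooth muscle actin, and Tagln (0.42) were closest, with group means for Acta2 of 0.798 FPKM in WT and 2.47 in KO at day 2 and 74.1 and 94.1 at day 4. For Igfbp6 the closest was H2-Ab1 (0.20), at 2.02 FPKM in WT and 4.79 in KO at day 4. These are distances over 8 libraries that share genotype and day, and no test was made.

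Of 35 other genes of the pathway, 24 had values high enough to test. From day 2 to day 4, 7 rose and 1 fell in WT, and 6 rose and 1 fell in KO, with medians of 0.30 and 0.20 log2 units. Called in either direction were thus 8 and 7 of 24. Over all genes 25.3% were called in WT (14.4% higher, 10.9% lower) and 17.8% in KO (10% higher, 7.81% lower). This list too was chosen with earlier results of these data known, and its counts were not tested against these shares. Igf1, the other IGF ligand, went from 0.359 to 4.62 FPKM in WT and from 0.271 to 3.89 in KO (group means; limma adjusted p = 0.00118 and 0.00311). Irs1, a docking protein of the receptor, went from 0.643 to 4.90 FPKM in WT and 1.07 to 3.84 in KO, and Irs2 from 9.51 to 18.8 and 8.57 to 18.0. At day 2 Igf1 was under 1 FPKM in every library and Irs1 in all but KO-i (1.43). Igf1 and Irs1 thus met the filter on low values only through day 4. Their calls, included in the counts above, are no independent sign of a rise. The kinase Akt1 went from 33.9 to 68.2 FPKM in WT and 32.5 to 56.6 in KO, and Akt2 rose in both genotypes as well. Igf2as rose from 1.87 to 5.66 FPKM in WT and 1.44 to 3.16 in KO. Foxo1 passed as higher in WT (0.41 log2 units, limma adjusted p = 0.0456; KO 0.19, 0.305) and the adaptor Shc1 as lower (-0.71, 0.0177; KO -0.44, 0.0997). Grb10, an imprinted adaptor that dampens receptor signalling, passed as lower in KO (-0.54, 0.0486; WT -0.45, 0.0653). None of the 24 passed for KO against WT at either day. At day 4 the values of Igf2bp2, which binds Igf2 mRNA, were 21.5 and 26.2 FPKM in WT and 9.66 and 16.7 in KO (-0.85 ± 0.24 log2 units, SE, limma adjusted p = 0.213).

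Of 14 genes next to Igf2 or Igf2r, 6 could be tested. Lsp1, which lies near Igf2, rose from a mean of 0.237 to 3.10 FPKM in WT and from 0.726 to 2.00 in KO (limma adjusted p = 0.00184 and 0.0382). It was under 1 FPKM in every day 2 library and met the filter on low values only through day 4. These 2 calls are therefore no independent sign of a rise. The 5 others (Tnnt3, Mrpl23, Mrpl18, Tcp1 and Acat2) did not pass between days. None of the 6 passed for KO against WT. H19, the maternally expressed non-coding neighbour of Igf2, was listed at 0.185 FPKM in WT-1 of day 2 and at no more than 8.61e-06 in the other 7 libraries. Values that small are below 1 read and can be failed estimates, so no level of H19 is given.

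After LIF withdrawal the same genes took other levels. The 2 tables were normalized separately and levels are not compared between them. Igf2 stood at 13.4 FPKM at day 0 and at 19.8, 6.16 and 358 at days 2, 4 and 6, at 115 in ME, 11.0 in NPC and 2.33 in NSC. Day 6 and ME were the highest, and NSC was the lowest. Airn was at 0.509 FPKM at day 0, at 0.180, 0.555 and 10.8 at days 2, 4 and 6, at 0.0526 in ME, 1.04 in NPC and 7.94 in NSC. The 2 imprinted transcripts thus ranked differently: NSC held the second highest Airn and the lowest Igf2, and ME the reverse.

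Igf2r ranged from 14.8 FPKM at day 2 to 50.5 at day 6, with 16.0 at day 0, 20.0 at day 4, 24.3 in ME, 24.4 in NPC and 44.2 in NSC. The 2 columns with the highest Airn, day 6 and NSC, also held the highest Igf2r. Igf1r was lowest at day 0 with 2.83 FPKM, stood at 7.74, 7.48 and 11.4 at days 2, 4 and 6, at 7.44 in ME and 9.94 in NPC, and was highest in NSC with 18.9. Igf2 was above Igf1r in level at days 0, 2 and 6 and in ME and NPC, and below it at day 4 and in NSC.

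The binding proteins also took different levels in the sorted lineages. Igfbp2 stood at 117 FPKM at day 0, 245, 178 and 228 at days 2, 4 and 6, 72.3 in ME, 115 in NPC and 680 in NSC. Igfbp3 stood at 17.7 FPKM at day 0, 95.2, 208 and 103 at days 2, 4 and 6, 266 in ME, 2.67 in NPC and 317 in NSC. NPC thus had the lowest Igfbp3 of all columns, and NSC, the line grown from such cells, 119 times as much. Igfbp4 was at 13.8 FPKM at days 0 and 2, 77.0 at day 4, 235 at day 6, 101 in ME, 41.6 in NPC and 338 in NSC. Igfbp5 was under 0.5 FPKM at days 0, 2 and 4 and stood at 11.9 at day 6, 1.56 in ME, 35.7 in NPC and 4.37 in NSC. Igfbp6 stayed between 0.168 (NPC) and 5.01 FPKM (day 6).

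**Figure D4:**
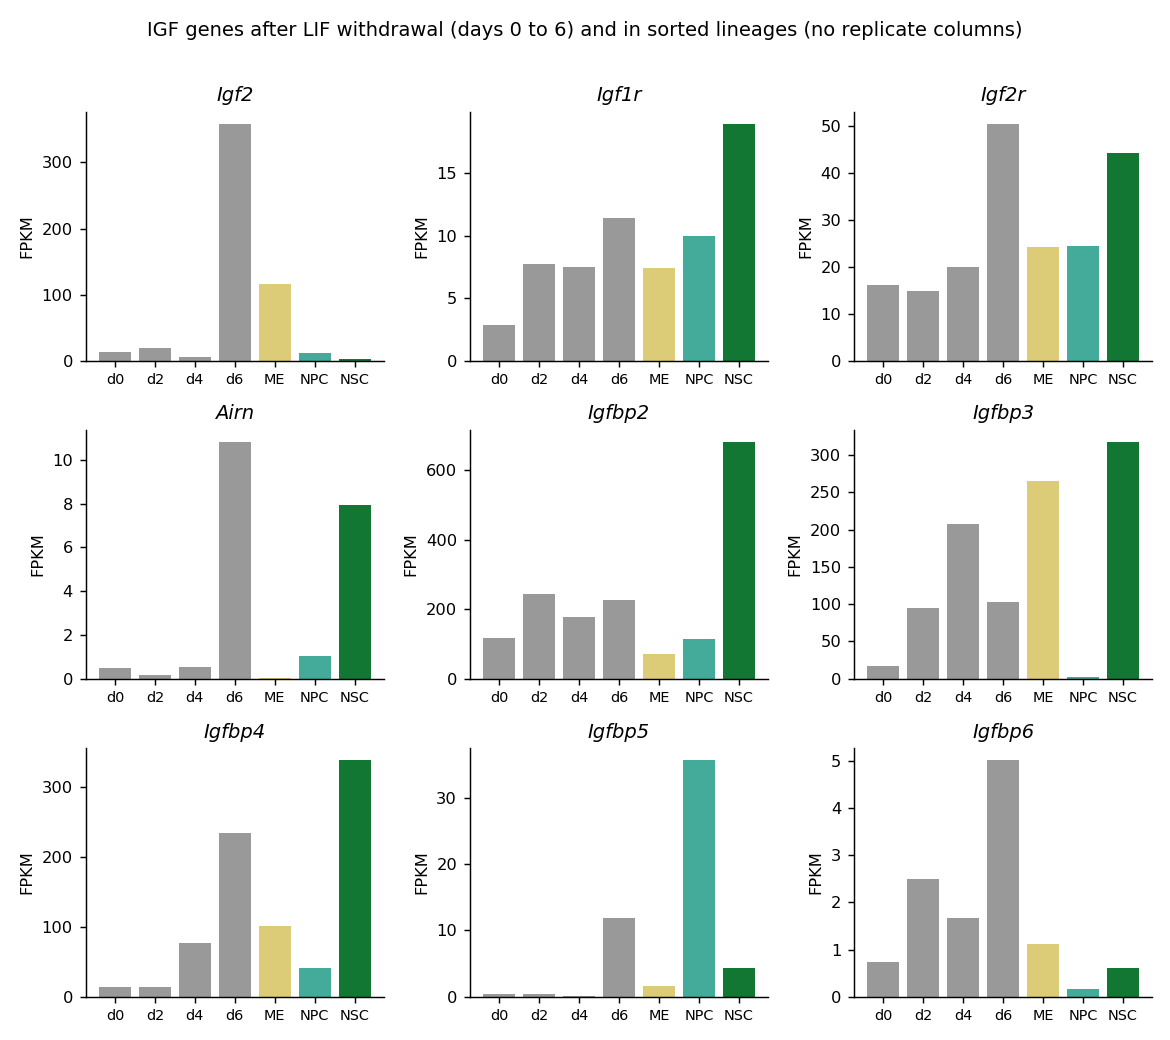
FPKM of the 9 IGF genes (vertical axes, linear from 0) at days 0 to 6 after LIF withdrawal and in ME, NPC and NSC. Each bar is 1 column, inferred to be the authors' mean for days 0, 2 and 6 and a single library otherwise, so no error is shown. Igf2 is highest at day 6 (358), Igfbp3 and Igfbp4 are highest in NSC (317 and 338) and Igfbp5 in NPC (35.7).

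Against day 0, a difference of at least 1 on the log2(FPKM + 1) scale (2-fold) was counted as past 2-fold, with no test. At day 2 this held for 4 of 9, all higher. Of 14189 genes with at least 1 FPKM in a column 9.65% were past 2-fold, 4.58% higher and 5.07% lower. At day 4 it held for 3 higher and 1 lower (15.2% of all genes, 6.53% higher and 8.62% lower). At day 6 it held for 8 of 9, all higher (18.3%, of which 11.4% higher and 6.97% lower), with Igfbp2 at 0.95 the exception. In ME it held for 4 higher (19.9%; 9.2% higher, 10.7% lower), in NPC for 3 higher and 1 lower (26.3%; 14.7% and 11.7%) and in NSC for 7 higher and 1 lower (37%; 20.5% and 16.5%). The median of the 9 was 2.47 at day 6 and 2.38 in NSC, against 0.07 and 0.05 over all genes. At day 6 the markers of trophoblast summed to 3231 FPKM against 255 at day 0, mostly Krt8 (1619) and Krt18 (1271), with Hand1 at 268 against 3.84. The smooth muscle markers summed to 675 FPKM against 88.5. In NSC the trophoblast and smooth muscle sums were under 2 FPKM. At day 6 the sums of mesendoderm (122 against 4.96 at day 0), neural progenitor (85.3 against 22.9) and fibroblast and mesenchyme markers (86.8 against 21.3) were also higher. Those of extraembryonic endoderm (1153 against 1725), undifferentiated ES, primed epiblast and neural stem markers were lower. The part of all these markers in the day 6 values was not tested.

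The make-up of the binding proteins differed between columns, without a test. Igfbp2 held 78.2% of the summed FPKM of the 5 genes at day 0 and 68.6% at day 2. Igfbp3 led at day 4 (44.7%) and in ME (60.2%), and at day 6 Igfbp4 (40.3%) and Igfbp2 (39.1%) were close. In NPC Igfbp2 held 58.9%, Igfbp4 21.4% and Igfbp5 18.3%, and in NSC Igfbp2 held 50.7%, Igfbp4 25.2% and Igfbp3 23.7%. Igfbp5, the leading binding protein of RA day 4, held at most 18.3% in this table. The sum ran from 150 FPKM at day 0 to 1341 in NSC.

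**Figure D5:**
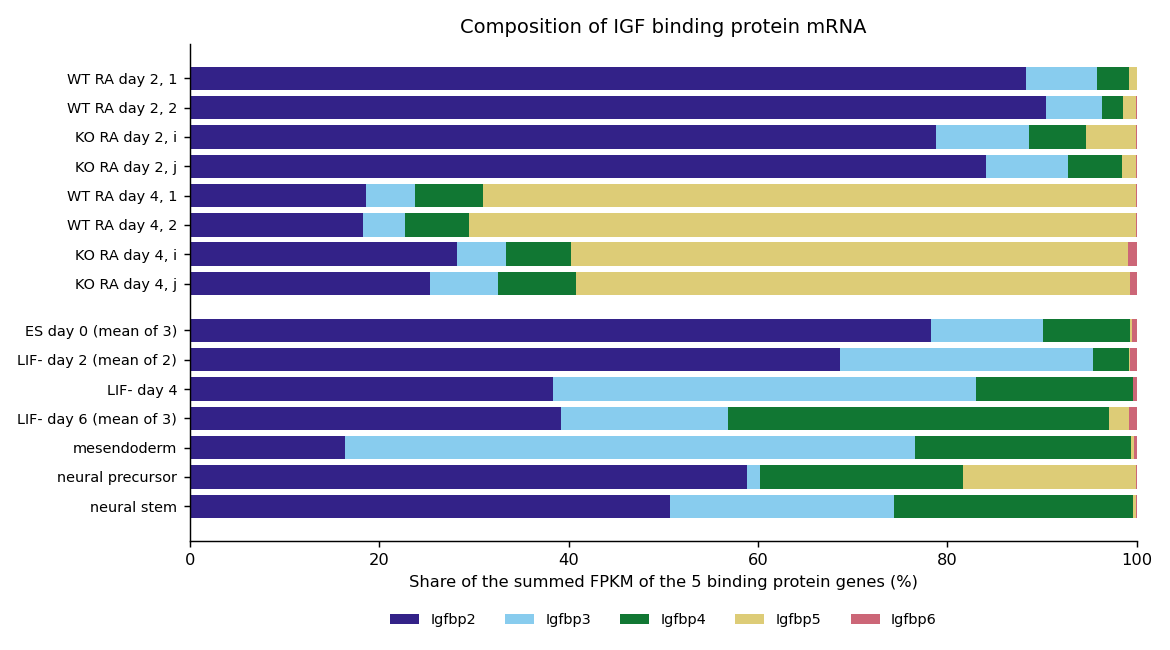
Share of each gene in the summed FPKM of Igfbp2 to Igfbp6 (horizontal axis, percent) for each RA library (upper 8 bars) and each column of the LIF and lineage table (lower 7 bars). Igfbp2 fills 78.8% to 90.4% of the RA day 2 bars, Igfbp5 58.4% to 70.4% of the RA day 4 bars, and Igfbp3 60.2% of mesendoderm.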

How the data were processed

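Expression values of 20 of the 54 samples were used; 34 samples were not analysed here, 1 of them without a clear group. The unit of the deposited values was inferred to be FPKM because low values step with gene length; the headers do not state it. Per the submitters' processing notes, the tools were MACS 1.4.2, TopHat2 2.0.11, Bowtie 1.0.0 and CASAVA, with mm9 as genome, and no roles. What computed the FPKM: not given in the sources used here. Per the labels' protocols, only the LIF libraries kept strand; strand use in counting is not given. The entries of Igf2, Airn and Igfbp5 are written with extra digits, so each may combine several estimates.

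From the deposited FPKM, log2(FPKM + 1) was taken. Of the RA genes, 15705 reached 1 FPKM in 2 or more of 8 libraries and were tested. limma 3.58.1 (R 4.3.3) was fitted to the 4 groups with an intensity trend and no block (4 residual, 3.50 prior degrees of freedom), with Benjamini-Hochberg adjustment over all genes and a threshold of 0.05; the fit was tested on simulated data. Depth is approximate, resting on 22 to 71 entries per library. The LIF table had no test; 11 entries whose symbol recurred were dropped. All 9 IGF genes and the passing genes of the lists are named, with the 3 closest profiles ranked for genes spanning at least 1 log2 unit. Genes, lists and markers were chosen with earlier results of these data known. Alternatives were the pseudocount, the filter, median centring, no trend, a block by library name and leaving out libraries. Python 3.11.15 drew the rest.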

Additional observations from a re-analysis of the deposited data

How the results depend on the processing

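For KO against WT and for the difference of the KO effect between days, the number of IGF genes called was 0 under every alternative run. For day 4 against day 2 in WT it was 6, and 4 to 7 when single libraries were left out. In KO it was 6, and 3 to 6 with single libraries left out (3 without KO-i of day 4) and 3 without both KO-i libraries, where Igfbp6 no longer entered the test. Of 542 alternative values of single-gene differences between genotypes or between days, 503 kept direction and side of the threshold, 17 changed sign, 14 lost and 8 gained a call. The cause was not tested. All 17 sign changes were in KO against WT. The difference of the KO effect between days, not among the 542, also changed sign for Igf1r (-0.062 to 0.13), Igf2r (-0.21 to 0.18) and Igfbp3 (-0.42 to 0.23). At day 2, leaving out 1 library moved Igf2 between -0.33 and 0.32 log2 units, Igf1r between -0.034 and 0.16, Igf2r between -0.016 and 0.36, Igfbp3 between -0.33 and 0.32, Igfbp5 between -0.090 and 1.77 and Igfbp6 between -0.016 and 0.18. At day 4 Igf2r lay between -0.038 and 0.35 and Igfbp2 between -0.12 and 0.29. Without both KO-i libraries these were 0.025 for Igf2, -0.034 for Igf1r, -0.016 for Igf2r and -0.090 for Igfbp5 at day 2, and -0.038 for Igf2r and -0.12 for Igfbp2 at day 4. With a pseudocount of 5, 2 genes in place of 4 were past 2-fold at days 2 and 4 of LIF withdrawal. With the library name as a replicate block, 7 IGF genes were called between days in each genotype, Igf2r being added (limma adjusted p = 0.0101 in WT and 0.0155 in KO). That pairing is not stated by the labels. The deviations of same-named libraries correlated across genes with r = 0.08 for WT and 0.26 for KO, and KO against WT could not be fitted with the block, since each name belongs to 1 genotype. The stricter filter, and leaving out either KO library of day 4, removed Igfbp6 from the test. With 2 libraries per group and 9 to 16.4 M reads, a missing call does not show equal levels, and genes near 1 FPKM, Airn at day 2 and Igfbp6, rest on few reads.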
